A study of Mus musculus with 8 samples.

Results

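S100a8, S100a9, S100a4, S100a6, S100a10 and S100a11 are 6 genes of the S100 family of small calcium-binding proteins, several of which act as alarmins when cells release them. They were taken by name from a table of 23369 genes measured in neutrophils of the inflamed spinal cord, and all 6 were among the 12610 genes with enough counts to be tested. S100 proteins bind calcium through EF-hand motifs and work as dimers that dock onto target proteins. S100A8 and S100A9 pair into calprotectin, which fills the cytosol of neutrophils, withholds zinc and manganese from microbes, and signals through Toll-like receptor 4 and the receptor RAGE once it is outside the cell. The other members are expressed in many cell types, where they bind annexins, non-muscle myosin and other partners inside the cell.

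The mice were C57BL/6N and had experimental autoimmune encephalomyelitis (EAE), a model of multiple sclerosis in which leukocytes invade the spinal cord. A sort for cells positive for CD45, CD11b and Ly6G collected the neutrophils at 2 zeitgeber times, which count hours from lights on: ZT1 (4 samples) and ZT13 (4 samples). Every sample came from the inflamed spinal cord, so the comparison holds no healthy or blood neutrophils. The sources used here do not give the age, sex or disease stage of the mice, or how EAE was induced. They count the sorted cells by mouse and name no animal, so each sample was taken as 1 mouse, and with shared mice the p-values would cover only sample spread, which may be technical.

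The libraries held 46152067 to 67873023 counts. Levels are given as CPM, the counts of a gene per 1000000 counts of its library after a scaling for composition. A count of 0 allows up to 3 counts, which corresponded to 0.0414 to 0.0674 CPM. The sort markers were present in every library: Itgam at 461 to 502 CPM, Ptprc at 1526 to 1916 CPM and Ly6g at 264 to 512 CPM. The 18 neutrophil markers of the list summed to 100212 to 116765 CPM at ZT1 and to 115526 to 143972 CPM at ZT13. The summed markers of monocytes and macrophages reached 2590 to 4364 CPM, those of microglia 135 to 254 CPM, those of B cells 136 to 248.8 CPM and those of astrocytes and oligodendrocytes 135 to 220 CPM. Those of T and NK cells (8.85 to 22.2 CPM) and of endothelial cells and fibroblasts (12.1 to 24.2 CPM, with Col3a1 at 0) were lower. Also lower were those of erythroid cells, with 0.422 to 3.81 CPM at ZT1 and 2.52 to 30.1 CPM at ZT13.

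All 6 genes lie on mouse chromosome 3. In the GENCODE M21 annotation of GRCm38, S100a4 (chr3:90603771-90606045, plus strand) is followed by S100a6 (chr3:90612882-90624181, plus) after 6.84 kb, by S100a8 (chr3:90668978-90670035, plus) after a further 44.8 kb, and by S100a9 (chr3:90692632-90695721, minus) after 22.6 kb. S100a8 and S100a9 thus sit on opposite strands with their 3′ ends facing each other. S100a11 (chr3:93520488-93526287, plus) and S100a10 (chr3:93555080-93564643, plus) form a separate group 2825 kb beyond S100a9, with 28.8 kb between them. Of 4 genes, S100a8, S100a9 and S100a11 moved closely together across the libraries and S100a4 less closely with them. The sequences in front of these 4 are shown for that reason and because their levels span over 3 orders of magnitude. Each runs 5′ to 3′ over the 250 bases before the RefSeq transcription start (GRCm38.p6), with motif matches on either strand in capitals. The motifs searched on both strands were the E-box CACGTG, which basic helix-loop-helix factors such as the clock proteins can bind, and the C/EBP motif TTGCNNAA. The ETS motif GAGGAA, of the kind that PU.1 binds, and the TATA box TATAAA were searched in the same way. A match on the other strand is printed as its reverse complement.

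S100a8, chr3:90668821-90669070, plus strand: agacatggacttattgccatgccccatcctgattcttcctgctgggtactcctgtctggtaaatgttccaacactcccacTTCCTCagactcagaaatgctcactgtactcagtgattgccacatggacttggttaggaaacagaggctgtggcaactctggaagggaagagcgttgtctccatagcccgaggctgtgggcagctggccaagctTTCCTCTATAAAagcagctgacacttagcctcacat
S100a9, chr3:90695722-90695971, minus strand: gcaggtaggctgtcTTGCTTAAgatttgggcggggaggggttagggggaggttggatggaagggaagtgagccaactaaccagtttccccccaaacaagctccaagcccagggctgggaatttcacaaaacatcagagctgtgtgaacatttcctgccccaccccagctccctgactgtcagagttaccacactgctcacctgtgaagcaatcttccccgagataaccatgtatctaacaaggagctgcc
S100a11, chr3:93520246-93520495, plus strand: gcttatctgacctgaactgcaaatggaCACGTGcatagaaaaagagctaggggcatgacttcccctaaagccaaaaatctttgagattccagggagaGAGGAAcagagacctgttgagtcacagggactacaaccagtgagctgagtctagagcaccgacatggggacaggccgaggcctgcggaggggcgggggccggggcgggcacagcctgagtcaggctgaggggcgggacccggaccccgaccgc
S100a4, chr3:90603520-90603769, plus strand: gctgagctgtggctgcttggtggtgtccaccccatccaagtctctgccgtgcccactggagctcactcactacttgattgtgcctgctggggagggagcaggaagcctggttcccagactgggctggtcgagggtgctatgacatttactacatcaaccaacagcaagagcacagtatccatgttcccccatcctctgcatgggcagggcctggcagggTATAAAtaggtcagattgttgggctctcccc

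The S100a8 window held the ETS motif 170 and 36 bases before the start and the TATA box at 30 bases, which directly follows the nearer ETS match. The S100a9 window held the C/EBP motif at 236 bases and no TATA box. The S100a11 window held the E-box at 223 bases and the ETS motif at 153 bases, and the S100a4 window held the TATA box at 31 bases. The S100a6 window, which is not printed, held none of the 4 motifs, and S100a10 had no entry in the promoter table. Of 32851 mouse promoter windows of this length, 23.3% held the ETS motif, 12.4% the TATA box, 9.56% the C/EBP motif and 6.02% the E-box. A match describes letters only, and the motifs were not tied to binding or to expression here. The S100a8 window overlaps the annotated S100a8 gene, which starts further upstream in GENCODE than in RefSeq.

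S100a8 and S100a9 together supplied 5.33 ± 0.916% (SD, n = 4) of all counts at ZT1 and 7.88 ± 1.47% (SD, n = 4) at ZT13 (adjusted exact permutation p = 0.114). Their ratio to each other had nearly the same mean at both times. The point estimates of all 6 genes were higher at ZT13, and none passed the test across all genes. In sorted bulk samples, more transcript per cell and more cells with a high level cannot be told apart. Other genes with transcripts under 1000 bases also had a larger mean share of counts at ZT13, 7.82% against 6.14% at ZT1. Their part in the S100 values was not tested.

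S100a8, whose product is the smaller subunit of calprotectin, had 19537, 28879, 31448 and 20932 CPM in ZT1 replicates 1 to 4. It had 30021, 29419, 46457 and 50434 CPM in ZT13 replicates 1 to 4. ZT13 replicates 3 and 4 stood above every ZT1 library, while ZT13 replicates 1 and 2 fell below ZT1 replicate 3, so the groups overlapped. The means were 25199 ± 5855 and 39083 ± 10935 CPM (SD, n = 4 each). The log2 fold change was 0.63 ± 0.22 (SE), with a 95% interval of 0.14 to 1.12 and an adjusted p of 0.491 by edgeR's quasi-likelihood test with Benjamini-Hochberg adjustment.

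S100a9, which encodes the larger subunit, had 22028, 29337, 36717 and 22291 CPM at ZT1. It had 34978, 37427, 46104 and 48633 CPM at ZT13. All ZT13 libraries but replicate 1 were above the highest ZT1 library, replicate 3. The means were 27593 ± 6961 and 41785 ± 6605 CPM (SD, n = 4 each), and the log2 fold change was 0.60 ± 0.18 (SE; 95% interval 0.20 to 1.00). Its adjusted p was 0.449 by the same edgeR test and 0.0504 by DESeq2, the lowest of the 6 genes under either tool.

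**Figure D1:**
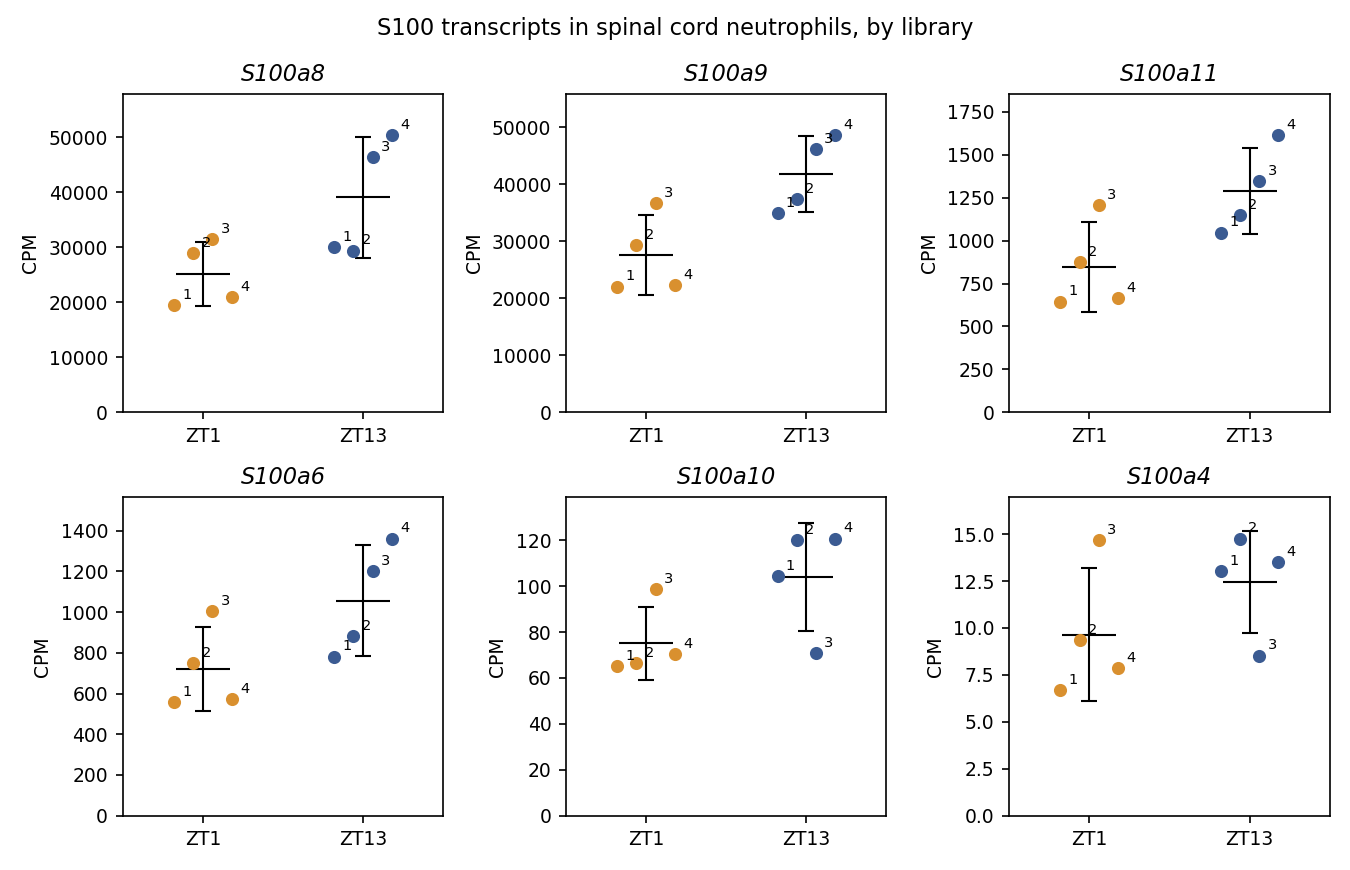
CPM of the 6 S100 genes (linear axes from 0, one panel a gene) in the ZT1 and ZT13 libraries; points are libraries with their replicate numbers, and bars are the mean ± SD (n = 4). S100a8 runs from 19537 to 50434 CPM and S100a4 from 6.69 to 14.8 CPM, and the ZT1 and ZT13 points overlap in every panel.

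As a share of all counts, the pair stood at 4.52%, 5.77%, 6.40% and 4.61% in ZT1 replicates 1 to 4. The ZT13 shares were 6.55%, 6.74%, 8.68% and 9.56%. The groups did not overlap on this scale, although ZT13 replicate 1 lay only just above ZT1 replicate 3. How many of all genes were free of overlap as a share of counts was not counted. By CPM, 2.66% of tested genes were higher at ZT13 without overlap, and neither S100a8 nor S100a9 was among them. The difference was 2.55 percentage points, with p = 0.0286 in an exact two-sided permutation test, the smallest p that 70 assignments of 4 and 4 libraries allow, and 0.114 after Benjamini-Hochberg adjustment over the 4 planned tests of shares and ratios. Without any 1 ZT1 library, or without ZT13 replicate 3 or 4, the difference was 2.00 to 2.91 percentage points with an exact permutation p of 0.0571 to 0.114. The groups stayed free of overlap in each case. The p rose because other assignments of the libraries to groups of unequal size gave a difference at least as large. Each gene alone, outside the 4 planned tests, gave the same unadjusted p of 0.0286 in the exact permutation test of its share. S100a8 had 2.54 ± 0.425% at ZT1 and 3.80 ± 0.956% at ZT13, and S100a9 had 2.78 ± 0.508% and 4.08 ± 0.527% (SD, n = 4 each). For S100a8 the highest ZT1 share, 2.955% in replicate 3, lay just below the lowest ZT13 share, 2.966% in replicate 2. By rank among all genes of a library, S100a8 was 5th, 4th, 3rd and 5th at ZT1 and 4th, 4th, 2nd and 1st at ZT13. S100a9 was 3rd, 3rd, 2nd and 4th at ZT1, and 2nd in every ZT13 library but replicate 3, where it was 3rd.

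Features of the whole library also differed between the time points. ZT13 libraries had counts in 14909 ± 766 genes against 16891 ± 815 at ZT1 (SD, n = 4 each, exact permutation p = 0.0286). The 10 genes most abundant over all libraries took 22.6% of counts at ZT13 against 18.8% at ZT1. S100a8 and S100a9 were among those 10 genes, so that share includes the pair's own. S100 transcripts are short, with 486 annotated bases for S100a8 and 519 for S100a9. The other tested genes with transcripts under 1000 bases, 1302 of them, had a median log2 fold change of 0.33, with 75.9% of them above 0. The 11005 genes with longer transcripts had a median of -0.05. Counts in the other short transcripts made up 5.50%, 6.09%, 7.68% and 5.30% of the ZT1 libraries and 7.55%, 7.71%, 7.86% and 8.17% of the ZT13 libraries. As a ratio to those counts, a denominator chosen after the data were seen, the pair had 0.822, 0.948, 0.834 and 0.870 at ZT1 and 0.868, 0.874, 1.10 and 1.17 at ZT13. ZT13 replicates 3 and 4 remained the highest on this ratio, while the other 2 ZT13 libraries lay within the ZT1 range, and the exact permutation p was 0.2. The part of short transcripts in the S100 values was not tested further.

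The S100a8 to S100a9 ratio of counts within a library was 0.887, 0.984, 0.856 and 0.939 at ZT1. It was 0.858, 0.786, 1.01 and 1.04 at ZT13. The lowest ratio and the 2 highest were all in ZT13 libraries, which spread on both sides of the ZT1 libraries. The means were 0.917 ± 0.0566 and 0.922 ± 0.120 (SD, n = 4 each), and the difference in log2 ratio was 0.0014 (exact two-sided permutation p = 0.971, also after adjustment over the 4 tests). Leaving out each library in turn gave differences from -0.058 to 0.075, so neither direction held. The SD at ZT13 came from a split between replicates 1 and 2, with less S100a8 than S100a9, and replicates 3 and 4, with slightly more. Per kb of annotated transcript, the 2 genes were at 51850 and 53166 CPM per kb at ZT1 and at 80417 and 80511 CPM per kb at ZT13. With all annotated exons as the length, S100a8 came to 36310 and 56315 CPM per kb and S100a9 to 52860 and 80049, because the annotation lists longer S100a8 transcripts.

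**Figure D2:**
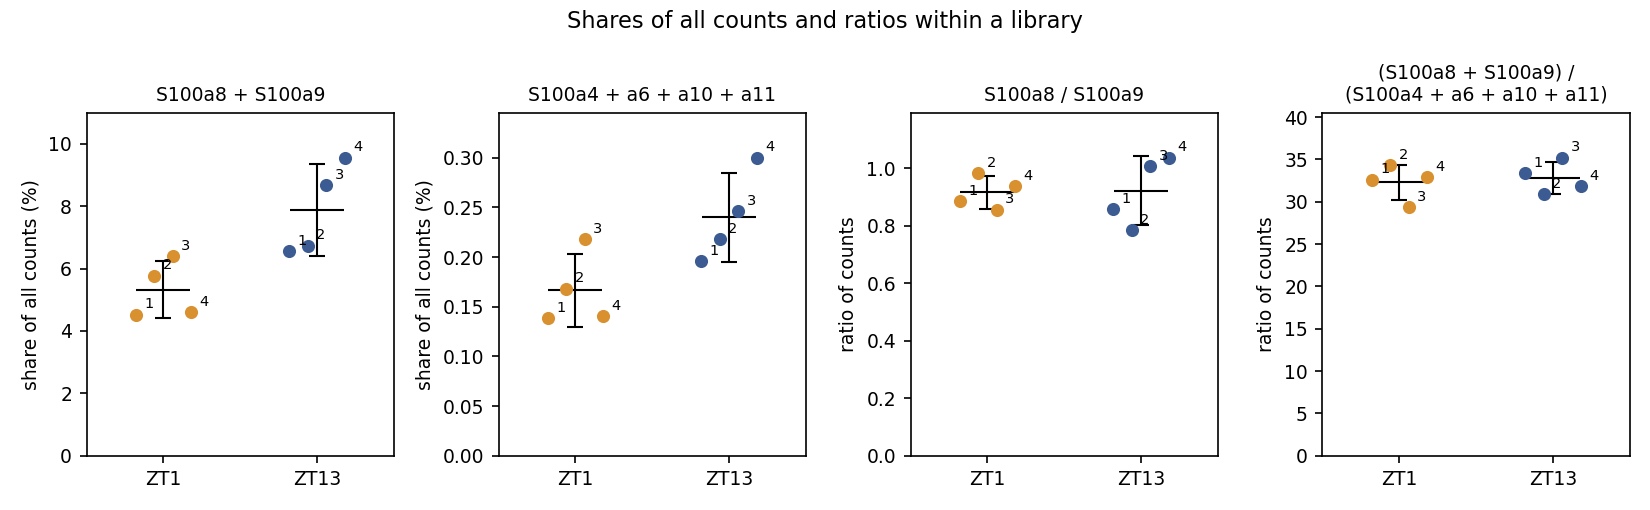
From left to right, the share of all counts (%) in S100a8 and S100a9, the share in the other 4 genes, the S100a8 to S100a9 ratio of counts, and the ratio of the pair to the other 4 genes; points are libraries with replicate numbers, bars the mean ± SD (n = 4), and all axes start at 0. The pair's share does not overlap between ZT1 (4.52 to 6.40%) and ZT13 (6.55 to 9.56%), whereas both ratios overlap.

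Of the members with partners inside the cell, S100a11 was the most abundant, then S100a6, S100a10 and S100a4. S100a11, which binds annexin A1 and takes part in membrane repair, had 645, 874, 1205 and 663 CPM at ZT1. It had 1047, 1147, 1349 and 1615 CPM at ZT13. ZT1 replicate 3 lay above ZT13 replicates 1 and 2, and the other ZT1 libraries were below all ZT13 libraries. The log2 fold change was 0.61 ± 0.21 (SE; 95% interval 0.14 to 1.08), with an adjusted p of 0.491 in edgeR.

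S100a6 encodes calcyclin, which binds the ubiquitin ligase adaptor CACYBP as well as annexins. Its levels were 558, 748, 1003 and 573 CPM at ZT1, and 781, 882, 1201 and 1361 CPM at ZT13. ZT1 replicate 3 again overlapped the lower ZT13 libraries. The log2 fold change was 0.55 ± 0.22 (SE; 95% interval 0.05 to 1.05), with an adjusted p of 0.519 in edgeR.

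S100a10, known as p11, is held in an active form without calcium and joins annexin A2 in a complex that binds plasminogen. It had 65.0, 66.3, 98.6 and 70.5 CPM at ZT1, and 104, 120, 70.6 and 121 CPM at ZT13. ZT1 replicate 3 stood well above the other ZT1 libraries and ZT13 replicate 3 well below the other ZT13 libraries, so that these 2 replicates exchanged places. The log2 fold change was 0.47 ± 0.20 (SE; 95% interval 0.03 to 0.91), with an adjusted p of 0.519 in edgeR.

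S100a4, which binds non-muscle myosin and promotes cell motility, had 6.69, 9.37, 14.7 and 7.84 CPM at ZT1, and 13.02, 14.8, 8.52 and 13.5 CPM at ZT13. The same 2 libraries broke the order as for S100a10, with ZT1 replicate 3 among the highest and ZT13 replicate 3 among the lowest. The log2 fold change was 0.37 ± 0.29 (SE), and its 95% interval of -0.27 to 1.01 included 0 (adjusted p = 0.768 in edgeR). The annotated gene Gm42674 runs over S100a4 on the same strand and shares 302 of its 584 exonic bases. The deposited counts hold no entry for Gm42674. The sources used here do not say how reads that fit both genes were counted, so reads within the shared bases cannot be told apart.

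Per kb of transcript the order of mean levels was the same at both times, with S100a8 and S100a9 level with each other at the top. S100a11 followed at 1657 and 2523 CPM per kb (ZT1 and ZT13), S100a6 at 986 and 1445, S100a10 at 110 and 152, and S100a4 at 19.4 and 25.0. S100a11 and S100a6 were neighbours whose CPM per kb overlapped across libraries on this length. With all annotated exons as the length they did not, since S100a6 then ran from 408 to 996 CPM per kb and S100a11 from 1262 to 3161. Within each library, however, S100a6 counts were 0.747 to 0.891 times the S100a11 counts, with means of 0.855 ± 0.0154 at ZT1 and 0.812 ± 0.0665 at ZT13 (SD, n = 4 each; exact permutation p = 0.343). On either length, every step from S100a9 to S100a11, S100a6 to S100a10 and S100a10 to S100a4 exceeded the range of the libraries.

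None of the 6 genes passed an adjusted p of 0.05 in edgeR, where 0 of 12610 genes did (0%). None did in DESeq2, which called 115 of 12068 genes (0.953%), 43 of them higher at ZT13 (0.356%). At an unadjusted edgeR p under 0.05, 5 of the 6 were higher at ZT13, all but S100a4, and 0 were lower, as 4.85% of all tested genes were. That level was reached in the same direction by 4.35% of all tested genes, by 14.2% of those with transcripts under 1000 bases, and by 48.9% of the 141 short-transcript genes with a mean of 50 or more CPM. CPM values of 0 of the 6 were free of overlap between groups, against 2.66% of tested genes higher at ZT13. Log2 fold changes were positive for 6 of the 6, against 47.7% of tested genes and 90.1% of the abundant short-transcript genes. The median of the 6 was 0.58, with a range of 0.37 to 0.63, beside -0.02 over all tested genes and 0.38 over the abundant short-transcript genes.

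**Figure D3:**
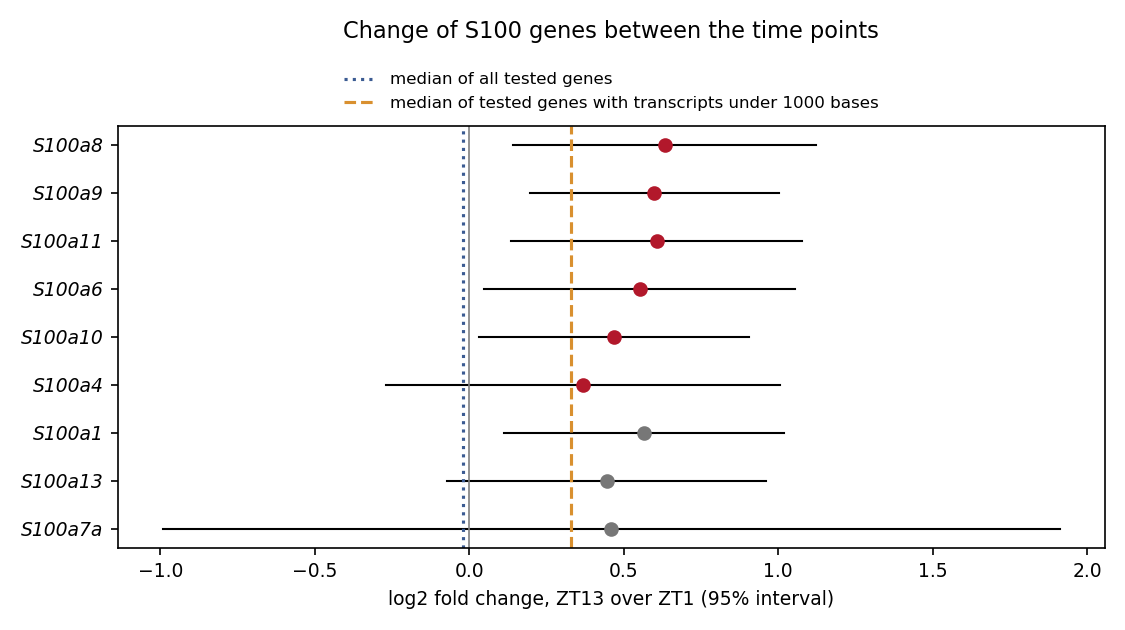
Log2 fold change of ZT13 over ZT1 with its 95% interval from edgeR for the 6 members (red) and 3 further S100 genes (grey). The dotted line is the median of all tested genes (-0.02) and the dashed line that of tested genes with transcripts under 1000 bases (0.33), which every interval includes.

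The 4 lesser members summed to 0.139%, 0.168%, 0.218% and 0.140% of counts at ZT1, and to 0.196%, 0.218%, 0.247% and 0.300% at ZT13. Only ZT1 replicate 3 reached the ZT13 range. The means were 0.166 ± 0.0371% and 0.240 ± 0.0449% (SD, n = 4 each; exact permutation p = 0.0857, adjusted 0.171). The pair outnumbered these 4 genes by 32.6, 34.3, 29.4 and 32.9 counts to 1 at ZT1 and by 33.4, 30.9, 35.2 and 31.8 to 1 at ZT13. The means were 32.3 ± 2.09 and 32.8 ± 1.89 (SD, n = 4 each), and the difference in log2 ratio was 0.03 (exact permutation p = 0.714, adjusted 0.952). S100a8 and S100a9 made up 96.7 to 97.2% of the counts of the 6 genes in every library.

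Across the 8 libraries the genes fell into 2 sets by the Pearson r of their levels, and the sets were less separate by rank. S100a8, S100a9, S100a6 and S100a11 went together: their 6 pairings had Pearson r of 0.95 to 0.99 on log2 CPM. Such r was not particular to the members. Ndufa3 had r of 0.995 with S100a8 and Sem1 0.998 with S100a11, for which S100a8 ranked 53rd among 2888 genes. The share of all gene pairs with r this high was not computed. The tightest were S100a9 with S100a11 (r = 0.99, rho = 0.98, adjusted exact permutation p = 0.000558 for r) and S100a6 with S100a11 (r = 0.98, rho = 1.0, adjusted p = 0.000372 in the same exact test). For S100a8 with S100a9, r was 0.96 and rho 0.93 (adjusted exact permutation p = 0.00329 for r and 0.00558 for rho). S100a4 and S100a10 went with each other (r = 0.92, rho = 0.81, adjusted exact permutation p = 0.0247 for r and 0.0408 for rho). With library totals alone as the scaling, r of this pairing was 0.90 (adjusted exact permutation p = 0.0309) and rho 0.74, which no longer passed (adjusted exact permutation p = 0.0982). The 8 pairings between the sets had r from 0.46 to 0.71, none past 0.05 after adjustment over the 15 pairings. By rank, S100a9 with S100a10 passed (rho = 0.81, adjusted exact permutation p = 0.0408), but not when CPM was scaled by library totals alone (rho = 0.45, adjusted exact permutation p = 0.389). S100a10 also had rho of 0.74 with S100a8 and of 0.76 with S100a6 and with S100a11, none past 0.05 after adjustment.

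Without the 2 libraries farthest from the median, the 7 strong pairings had r from 0.91 to 0.97. Centred on the means of each time point, which removes the difference between ZT1 and ZT13, r was 0.93 for S100a8 with S100a9, 0.98 for S100a6 with S100a11 and 0.91 for S100a4 with S100a10. By contrast, the centred r of S100a8 with S100a10 was 0.05. Weak pairings moved widely when the 2 libraries farthest from the median were left out. There r of S100a8 with S100a4 went from 0.48 to 0.91, and that of S100a9 with S100a4 from 0.66 to 0.05.

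**Figure D4:**
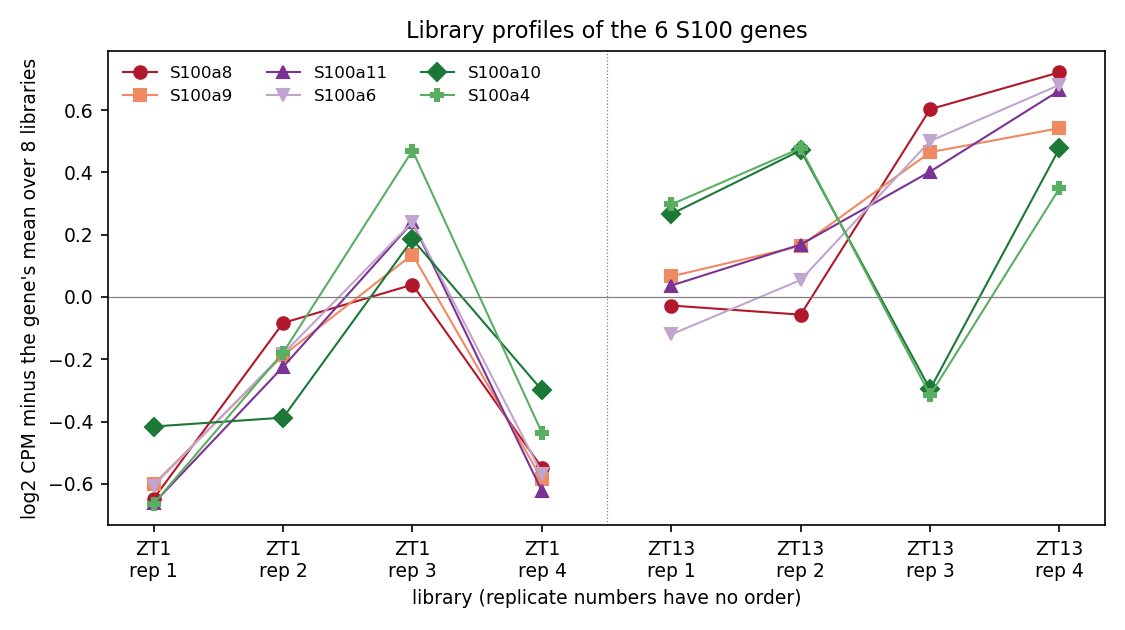
Log2 CPM of each S100 gene minus its mean over the 8 libraries, by library; lines join the points of a gene and carry no order in time, and the dotted line separates ZT1 from ZT13. In ZT13 replicate 3, S100a10 and S100a4 lie below their means while the other 4 genes lie above theirs.

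ZT13 replicate 3 separated the sets. In it S100a8 and S100a9 were at 46457 and 46104 CPM, far above their ZT1 means, whereas S100a10 and S100a4 were at 70.6 and 8.52 CPM, below their ZT1 means of 75.1 and 9.65. The S100a10 to S100a11 ratio of counts was at its lowest there (0.0524, beside an upper end of 0.106), as was the S100a4 to S100a11 ratio (0.00632, beside 0.0129). The 15 markers of monocytes and macrophages, cells that also express S100a4 and S100a10, were all detected in at least 1 library, and their sums were 2983, 3094, 4364 and 3088 CPM at ZT1 and 3911, 3999, 2590 and 2865 CPM at ZT13. They were highest in ZT1 replicate 3 and lowest in ZT13 replicate 3, the libraries where S100a10 stood out, but ZT13 replicate 4 had low markers with S100a10 at 121 CPM. Their part in the S100a4 and S100a10 values was not tested.

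The genes whose log2 CPM followed a member most closely were sought among 2888 to 2889 tested genes with a mean of 50 or more CPM, as a description over 8 libraries. For S100a8 they were Ndufa3 (r = 0.995), a subunit of respiratory complex I, Ndufb1-ps (0.995) and Wfdc21 (0.991). S100a9 was nearest to the histone variant gene H2afz (0.994), S100a11 (0.992) and Elob (0.989), and S100a11 to Sem1 (0.998), S100a9 (0.992) and Elob (0.990). S100a6 was nearest to Atp5j2, Sem1 and Cox6c, with r of 0.986 to 0.988. Thus S100a11, not its heterodimer partner S100a8, followed S100a9 most closely among the members: S100a8 was the 33rd gene on that scale, and the difference in r was not tested. For S100a4 the nearest were Rpl9 (0.971), Cst3 (0.966), which encodes the protease inhibitor cystatin C, and Pla2g7 (0.963). For S100a10 they were Rpl4 (0.966), Rbm8a (0.958) and mt-Nd1 (0.957).

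Of 12 other S100 family genes on the list, 8 were in the table and 5 were tested. S100a13, which takes part in release of proteins that lack a signal peptide, was the most abundant, with 38.7 ± 11.9 CPM at ZT1 and 52.7 ± 12.2 CPM at ZT13 (SD, n = 4 each). S100a1 followed with 14.97 ± 3.34 and 22.2 ± 3.72 CPM (log2 fold change 0.57 ± 0.20 SE, adjusted p = 0.491 in edgeR). S100a7a had 1.35 and 1.86 CPM, while S100a3 (0.324 and 0.218 CPM) and S100a2 (0.195 and 0.241 CPM) were under 1 CPM in every library. The tested 5 had 4 positive log2 fold changes, a median of 0.44 and 0 calls. Per kb, S100a13 (54.1 and 73.7 CPM per kb) lay between S100a10 and S100a4. S100a1 (22.1 and 32.7 CPM per kb) was near S100a4, which lay well above the next family gene, S100a7a (1.06 and 1.45 CPM per kb). S100a5, S100a16 and S100b did not reach the count filter. S100b, a marker of astrocytes, was at 0 in 5 libraries and had 58 counts in ZT13 replicate 4.

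Receptors and signalling genes of calprotectin lay on both sides of 0. Of 12 tested, 8 had positive and 4 negative log2 fold changes, with a median of 0.06. Only 1, Cd47, had an unadjusted edgeR p under 0.05, higher at ZT13, as 4.35% of all tested genes were. Cd47, an integrin-associated protein, had 634 ± 18.2 CPM at ZT1 and 709 ± 19.1 CPM at ZT13 (SD, n = 4 each) without overlap (log2 fold change 0.16 ± 0.07 SE, adjusted p = 0.526 in edgeR). Cd14, the co-receptor of Toll-like receptor 4, was the most abundant, with 3406 ± 1012 and 2775 ± 529 CPM (log2 fold change -0.30 ± 0.21 SE). Ly96, which encodes the co-receptor MD-2, had 10.5 ± 3.60 and 15.6 ± 4.62 CPM. The receptor genes Tlr4 and Ager (RAGE) were named after their values were seen. Tlr4 had 99.9 ± 18.9 and 89.8 ± 10.02 CPM, and Ager, at 0.370 and 0.0056 CPM, did not reach the filter.

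The NADPH oxidase and release list covers the enzyme to which calprotectin delivers arachidonic acid and the proteins through which neutrophils release their contents. Of 11 tested genes, 6 were positive and 5 negative, with a median of 0.00. Cyba, the membrane subunit p22phox, had 970 ± 287 CPM at ZT1 and 1301 ± 109 CPM at ZT13 (SD, n = 4 each; log2 fold change 0.42 ± 0.18 SE, adjusted p = 0.519 in edgeR). The pore-forming protein gene Gsdmd was on the other side, with 132 ± 7.64 and 115 ± 5.33 CPM and no overlap (log2 fold change -0.20 ± 0.09 SE, adjusted p = 0.531 in edgeR).

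Of 16 annexins and other intracellular partners tested, 9 were positive and 7 negative, with a median of 0.06. Anxa1, the partner of S100A11, had 7114 ± 510 CPM at ZT1 and 8936 ± 1263 CPM at ZT13 (SD, n = 4 each). Its groups did not overlap, and the log2 fold change was 0.33 ± 0.11 (SE, adjusted p = 0.491 in edgeR). Anxa5 had 247 ± 18.6 and 296 ± 15.4 CPM, also without overlap. The partner of S100A10, Anxa2, was outside the naming rule and chosen after its values were seen. Its levels were 2005 ± 424 and 2203 ± 105 CPM (log2 fold change 0.14 ± 0.13 SE).

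Of 14 regulators tested, 6 were positive and 8 negative, with a median of -0.09, and 4 had an unadjusted p under 0.05 toward ZT13 and 2 toward ZT1, beside 4.35% and 4.85% of all tested genes. Cebpd, a C/EBP factor of the inflammatory response, had 261 ± 46.2 CPM at ZT1 and 377 ± 29.7 CPM at ZT13 (SD, n = 4 each) without overlap. Its log2 fold change was 0.53 ± 0.13 (SE), with an adjusted p of 0.346 in edgeR and 0.0188 in DESeq2, the list's only call. DESeq2 called 0.953% of all genes. Cebpb, the most abundant regulator, had 2122 ± 468 and 2022 ± 426 CPM. Spi1, which encodes PU.1, had 886 ± 107 and 1069 ± 47.4 CPM (log2 fold change 0.27 ± 0.10 SE). Hif1a, the hypoxia factor, had 280 ± 59.6 and 213 ± 23.3 CPM (log2 fold change -0.40 ± 0.15 SE, adjusted p = 0.494 in edgeR).

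Of 13 EF-hand genes outside the S100 family, 9 were positive and 4 negative in log2 fold change, beside 47.7% positive over all tested genes. Their median was 0.14, and 4 had an unadjusted p under 0.05, all higher at ZT13, as 4.35% of all tested genes were. Pdcd6, the calcium sensor ALG-2, had 125 ± 15.1 CPM at ZT1 and 166 ± 31.0 CPM at ZT13 (SD, n = 4 each) without overlap. The 18 neutrophil markers had 12 positive log2 fold changes and a median of 0.18, 0 of them past the threshold in edgeR and 1 in DESeq2. The 15 monocyte and macrophage markers had 8 positive and 7 negative, with 0 past the threshold in edgeR and 2 in DESeq2. DESeq2 called 0.953% of all genes.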

How the data were processed

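Neutrophil RNA was amplified with SMART-Seq v4 and made into Nextera XT libraries, which do not mark the strand, and read as single reads of 50 bases, per the labels' protocols. By the labels, the 8 samples form 1 batch. The authors deposited raw counts per gene. The submitters' processing notes name FastQC, STAR 2.7.10b, featureCounts, Subread 2.0.3, DESeq2 1.46.0 and GRCm38. The sources used here do not give tool roles, annotation release, strand setting or the treatment of reads mapping to several places. Reads within bases that overlapping genes share therefore cannot be told apart. Table columns were matched to samples by library name. Of the Ensembl identifiers, 22231 matched GENCODE M21, and the other 1138 held 0.121% of counts.

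Genes were filtered with filterByExpr (minimum count 10, minimum total 15), scaled by TMM and tested with edgeR 4.0.16 in R 4.3.3 (robust quasi-likelihood F-test, Benjamini-Hochberg over 12610 genes, threshold 0.05). The standard error is the absolute log2 fold change over the square root of F. The biological coefficient of variation was 0.498, and floors from depth cover counting error only. Log2 CPM uses a prior count of 2. Shares, ratios and correlations used exact two-sided permutation tests in SciPy 1.17.1. No pair of replicates agreed within sampling noise. Alternatives were DESeq2 1.42.0, limma-voom (limma 3.58.1), other scalings, filters and denominators, a replicate block and leaving out each library. The procedure was tested on simulated data.

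The members and gene lists were chosen with earlier results of these data known. The text names all members, tested S100 genes, up to 4 genes of smallest p and the most abundant gene per partner list, the most abundant gene of every other marker list, the genes of the sort, and the 3 genes most like each member. Not all are printed. Promoter sequences are RefSeq's, matched by symbol for 5 of 6 members.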

Additional observations from a re-analysis of the deposited data

Results flagged for a closer look

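Of 104 groups of 4 libraries checked for 1 library far from the other 3, 5 held one, and chance gives about 1 in 20. S100a10 was at 98.6 CPM in ZT1 replicate 3, beside 65.0 to 70.5 CPM in the other ZT1 libraries. S100a13 was at 56.3 CPM in the same library, beside 30.7 to 34.9 CPM. Cib1, an EF-hand gene, was also high there, at 90.8 CPM beside 58.1 to 60.7 CPM. Capns1, the small calpain subunit, was low in ZT1 replicate 2, at 64.3 CPM beside 87.0 to 90.4 CPM. Rac2, a GTPase of the NADPH oxidase, was high in ZT13 replicate 3, at 3118 CPM beside 2783 to 2821 CPM.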

How the results depend on the processing

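The 6 members had positive log2 fold changes and missed the threshold in all 108 combinations of gene and alternative, with values from 0.23 to 0.82 and adjusted p from 0.0504 (S100a9, DESeq2) to 0.981. DESeq2 called 115 genes where edgeR called 0 (1160 at an unadjusted p under 0.05), and every other alternative called 0. The difference in the pair's share ranged from 2.00 to 3.00 percentage points when 1 library was left out (exact permutation p = 0.0286 to 0.114). That p stayed at 0.0286 without ZT13 replicate 1 or 2 and exceeded 0.05 without any other library, although the groups never overlapped. As a ratio to the counts in other short transcripts the difference was 0.136 (exact permutation p = 0.2). The share of the other 4 genes differed by 0.0539 to 0.0911 points (p = 0.0571 to 0.143, exact permutation).

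The difference between time points in the S100a8 to S100a9 log2 ratio ran from -0.058 to 0.075 with 1 library left out, turning negative without ZT1 replicate 1 or 3 or ZT13 replicate 3 or 4. The same difference for the log2 ratio of the pair to the other 4 genes ran from -0.020 to 0.055, turning negative without ZT1 replicate 3 or ZT13 replicate 3. S100a2, below 1 CPM, turned negative in limma-voom (-0.067), with the replicate block by sample title (-0.0035, against 0.31 with the block by library name) and without ZT13 replicate 3 (-0.34), and ran up to 0.66 without ZT13 replicate 2. Cebpb ran from -0.18 to 0.059 with 1 library left out, turning positive without ZT1 replicate 3 or ZT13 replicate 2. The cause was not tested. Cebpd passed in DESeq2 (0.53, adjusted p = 0.0188). The remaining values of the named genes, 673 of 679, kept direction and call.

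The labels hold 2 numberings, in sample titles and in library names, and both were fitted as a replicate block across genes. Neither paired the samples: deviations of libraries with the same title number correlated at 0.0018, -0.00062, -0.04 and 0.02, and by library number the first 2 pairs were the same and the remaining one had 0.05. With the title-number block the pair's share differed by 2.55 points with an exact sign-flip p of 0.125, the smallest that 4 pairs allow, and neither block changed any other call. With library totals as the scaling the same number of member pairings, 7, passed by Pearson r. Depth did not limit the members: the least abundant, S100a4, had 6.69 CPM or more in every library.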
